A study of Arabidopsis thaliana with 15 samples.

Results

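The ATG8 proteins are small ubiquitin-like proteins that become joined to the lipid phosphatidylethanolamine on the growing autophagosome, the double membrane that carries cytoplasm to the vacuole for breakdown. All 9 ATG8 genes of Arabidopsis thaliana and ATG3, which encodes the enzyme that transfers ATG8 onto the lipid, were followed here in cells of the stomatal lineage. The genes were chosen by locus code. Probe sets listed to no gene or to several were not searched for them. For each of the 10 genes, 1 probe set listed to it alone was used, out of the 20956 of the deposited table. None of these 10 probe sets has a name that marks shared probes, but the ATG8 genes are close relatives and probe sequences were not used here, so cross-hybridisation between them was not tested. The locus AT4G21980, listed as APG8A, is called ATG8A below, and AT3G15580, listed as APG8H, is called ATG8I, in each case a synonym in the reference gene list. The remaining loci are AT4G04620 (ATG8B), AT1G62040 (ATG8C), AT2G05630 (ATG8D), AT2G45170 (ATG8E), AT4G16520 (ATG8F), AT3G60640 (ATG8G), AT3G06420 (ATG8H) and AT5G61500 (ATG3).

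New ATG8 is trimmed by the protease ATG4, activated by ATG7 and passed to ATG3, and a complex of ATG12, ATG5 and ATG16 helps to place it on the membrane. Plant ATG8 proteins form 2 clades, one with ATG8A to ATG8G and one with ATG8H and ATG8I, whose proteins end in the glycine that ATG4 exposes in the others. In leaves, autophagy recycles nutrients during starvation, darkness and ageing, and in guard cells it has been linked to the removal of oxidised peroxisomes and to stomatal opening.

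Expression was measured on 15 ATH1 arrays, 3 in each of 5 populations of protoplasts sorted by fluorescence from the aerial parts of Col seedlings aged 14 days. Early precursors (mother cells of meristemoids, and young meristemoids) carried SPCHp::SPCH-YFP, middle precursors (late meristemoids, young guard mother cells) MUTEp::nucGFP, late precursors (mature guard mother cells, young guard cells) FAMAp::GFP-FAMA and mature guard cells the enhancer trap E1728::GFP, whereas cells of the whole epidermis carried ML1p::YFP-RCI2A. All were grown at 25 °C on 1% sucrose with 16 hours of light and digested for 2 hours, and 2000 to 20000 cells made a replicate. Every population has a reporter line to itself, so effects of line and of stage cannot be told apart, and the labels do not say whether replicates came from separate cultures, so p-values measure only the spread between these samples. In such sorted bulk samples, fewer cells that use a gene and less of its RNA per cell cannot be told apart either.

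Values are log2 expression from RMA, and array medians ran from 2.52 to 2.68. A group mean at or below 2.68 is read as near the background, and a fold against such a mean is computed against 2.68 and given as at least that value. Early precursor arrays were the most variable, with a pooled SD over all probe sets of 0.658, against 0.282 to 0.383 in the other populations. SPCH averaged 9.11 in early precursors and at most 4.1 elsewhere, and FAMA averaged 10.11 in late precursors and at most 7.23 elsewhere, where the transgenes of these lines can add to the signal. MUTE was near the background in all 5 populations, so no size is given. Its highest mean was in middle precursors (2.37). With limma it passed there against early precursors (adjusted p = 0.0461), late precursors (0.0336) and the epidermis (0.0386), but not against mature guard cells (0.12). No marker of the epidermis list was analysed, so that label was not checked. Of 7 mesophyll markers 3 were measured (RCA, PSAE-1 and SBPASE). Their summed log2 level ran from 16.8 to 25.6 in early, 22.6 to 22.8 in middle and 20.6 to 22.8 in late precursors and 22.1 to 24.8 for mature guard cells, against 28 to 30.4 in the epidermis. The measured marker of vasculature (1 of 4, SWEET11) was near the background in all 5 populations, and that of trichomes (1 of 3, TRY) in all but early precursors, where 1 array reached 6.61.

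Across the 5 populations 7 of the 10 genes differed: ATG8A, ATG8B, ATG8D, ATG8E, ATG8F, ATG8H and ATG3 (limma's moderated F test, Benjamini-Hochberg adjusted p from 0.00307 for ATG8A to 0.0409 for ATG3). Over all probe sets 19.8% passed this test, and 30.6% of the 12383 with at least 1 group mean above 2.68. ATG8C (adjusted p = 0.134), ATG8G (0.173) and ATG8I (0.0994) did not pass. In 9 of 10 genes the mean was highest in late precursors, as in 16.7% of all probe sets. Likewise 9 of 10 had their lowest mean in early precursors, as in 21.9% of all probe sets. For ATG8B and ATG8D this rank, and for ATG8G every rank, is among means near the background, where the order is not measured. The exceptions were ATG8F, highest in the epidermis, and ATG8G, lowest in middle precursors. Without the early precursor arrays the F test passed 2 genes (16.2% of all probe sets), and with 1 weight per population 4 (18.6%).

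**Figure D1:**
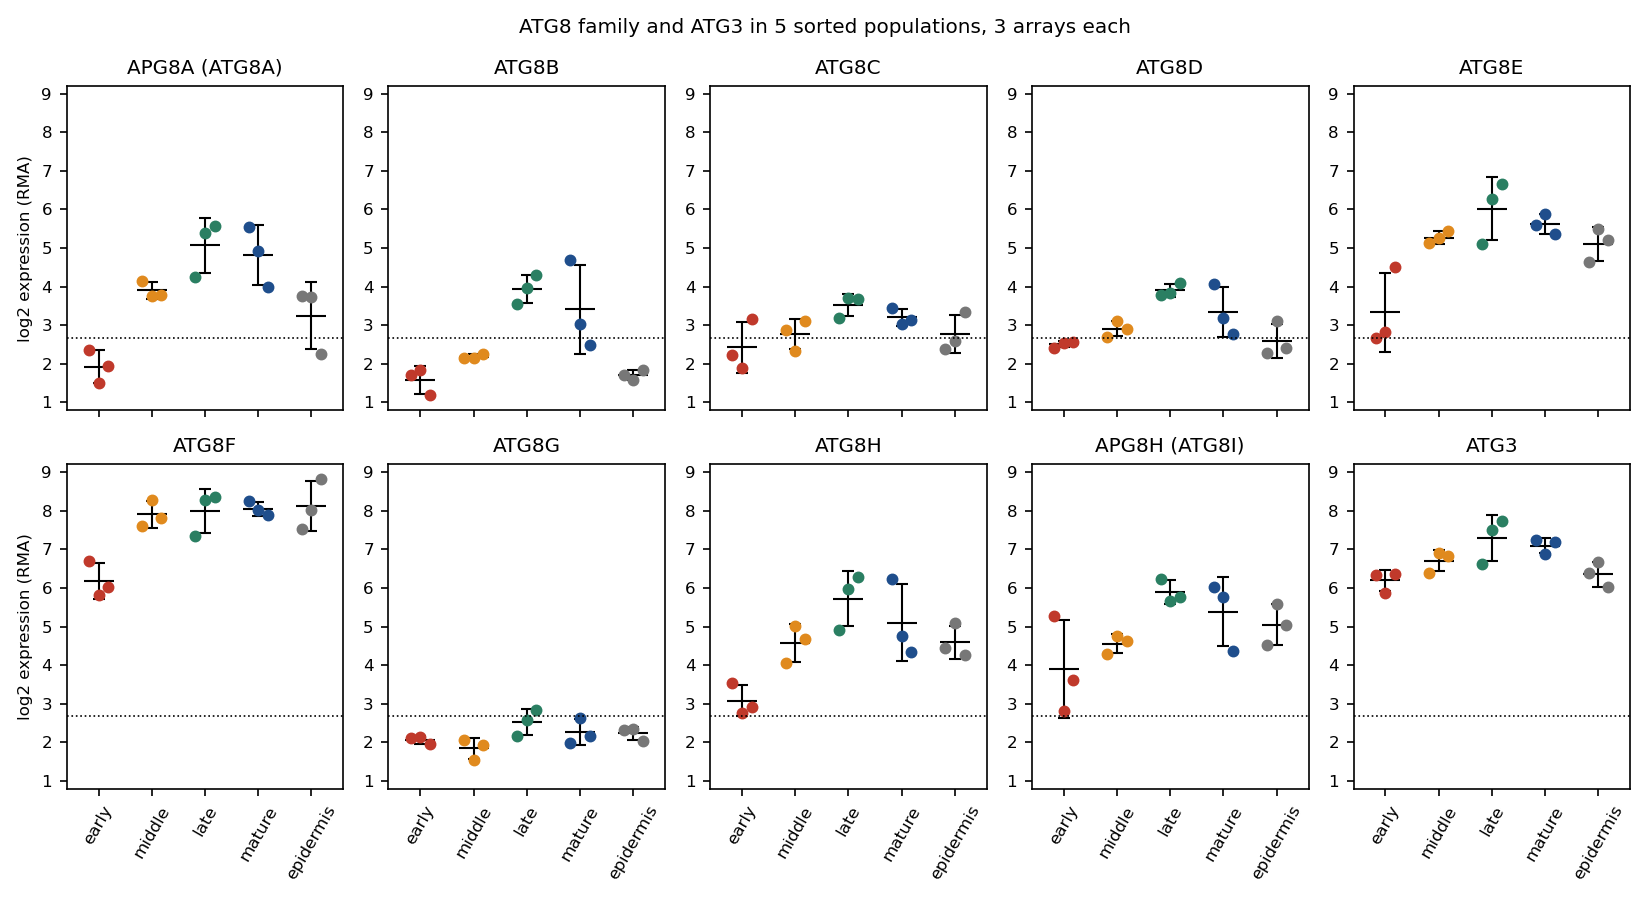
Log2 expression (RMA, vertical axis) of each gene on all 15 arrays, by population along the horizontal axis (epidermis on the right). Points are arrays, the long bar is the mean of 3 and the whiskers 1 SD; the dotted line marks 2.68, the highest array median. In 9 of the 10 panels the late precursor mean is the highest, and ATG8G lies near the line or below it in all 5 populations.

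ATG8A was near the background in early precursors and above it in every other population. It stood at 2.36, 1.50 and 1.93 in early precursors, 4.15, 3.77 and 3.79 in middle precursors, 4.26, 5.39 and 5.57 in late precursors, and 5.55, 4.93 and 4.0 for mature guard cells, against 3.77, 3.73 and 2.25 in the epidermis. All early values lay below all middle, late and mature values, and the late arrays lay above all of the epidermis. Late precursors were at least 5.28-fold above early precursors (log2 difference 3.15, SE 0.48; adjusted p = 0.00076), middle precursors at least 2.34-fold above early precursors (1.97, adjusted p = 0.0255) and mature guard cells at least 4.44-fold (2.90, adjusted p = 0.00176). Against the epidermis, ATG8A was 3.55-fold higher in late precursors (1.83, SE 0.48; adjusted p = 0.0362). That call was lost without epidermis replicate 3, any 1 of the middle precursor replicates, late precursor replicate 2 or 3, or mature guard cell replicate 2 (adjusted p from 0.0507 to 0.143). The late to epidermis call was also lost after cyclic loess (0.0541) and with only the populations compared in the fit (0.0726). Averaging late precursor replicates 2 and 3 lost it too (0.137). The middle to early call was lost without early precursor replicate 2 or any 1 of the middle precursor replicates (0.0571 to 0.0907). Cyclic loess (0.0553), array weights (0.072) and 1 weight per population (0.112) also lost the middle to early call.

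ATG8B was near the background until the late stage. Its values were 1.72, 1.85 and 1.18 in early precursors, 2.14, 2.15 and 2.26 in middle precursors, 3.56, 3.96 and 4.30 in late precursors and 4.70, 3.04 and 2.50 for mature guard cells, against 1.72, 1.59 and 1.84 in the epidermis. The late arrays lay above every early, middle and epidermis array, while the mature guard cell arrays spread over 2.20 log2 units and overlapped with the late ones. Late precursors were at least 2.40-fold higher than early precursors (log2 difference 2.36, SE 0.42; adjusted p = 0.00232), than middle precursors (1.76, adjusted p = 0.0365) and than the epidermis (2.22, adjusted p = 0.00664). ATG8B was the single gene of the 10 that also passed in mature guard cells against the epidermis, at least 1.67-fold higher (1.70, adjusted p = 0.0448), and mature guard cells stood above early precursors (1.83, adjusted p = 0.0114). The call of mature guard cells against the epidermis was lost in 11 of the 15 fits that leave out 1 array: without any 1 array of the epidermis, middle precursors or late precursors, or without mature guard cell replicate 1 or 2 (adjusted p from 0.0503 to 0.112). The log2 difference itself was 1.05 without mature guard cell replicate 1. The late to middle call was lost without any 1 array of the epidermis or middle precursors, or late precursor replicate 2 or 3 (0.0502 to 0.158). Averaging late precursor replicates 2 and 3 also lost the late to middle call (0.139), as did a replicate block. The mature to epidermis call was also lost with only the populations compared in the fit (0.141). It was lost too with those late replicates averaged (0.0633) and with a replicate block. The mature to early call was lost with only the populations compared in the fit (0.133), array weights (0.0599) or 1 weight per population (0.0748).

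ATG8D followed a similar course at low level. It read 2.41, 2.54 and 2.56 in early precursors, 2.71, 3.11 and 2.92 in middle precursors, 3.79, 3.84 and 4.08 in late precursors and 4.06, 3.19 and 2.78 for mature guard cells, against 2.28, 3.10 and 2.41 in the epidermis. Late arrays lay above all early, middle and epidermis arrays and overlapped with those of mature guard cells. Late precursors were at least 2.34-fold above early precursors (1.40, SE 0.29; adjusted p = 0.00527) and above the epidermis (1.30, SE 0.29; adjusted p = 0.0148). Against the epidermis the call was lost without epidermis replicate 1 or 3 or late precursor replicate 3 (adjusted p from 0.0544 to 0.0658). The late to epidermis call was also lost with late precursor replicates 2 and 3 averaged (0.0551). Mature guard cells against early precursors did not pass (0.84, adjusted p = 0.0565).

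ATG8C passed in 1 comparison and ATG8G in 0. ATG8C read 2.23, 1.90 and 3.17 in early precursors, 2.87, 2.34 and 3.11 in middle precursors, 3.20, 3.70 and 3.68 in late precursors and 3.45, 3.04 and 3.13 for mature guard cells, against 2.38, 2.60 and 3.34 in the epidermis. Its 1 call was late against early precursors, at least 1.80-fold (1.09, SE 0.33; adjusted p = 0.0373). This call was lost without early precursor replicate 1 or 2, middle precursor replicate 1, or late precursor replicate 2 or 3 (adjusted p from 0.0507 to 0.119). Only the populations compared in the fit (0.132) and 1 weight per population (0.0916) also lost it. Averaging late precursor replicates 2 and 3 lost it too (0.119). ATG8G had group means between 1.84 ± 0.28 in middle precursors and 2.52 ± 0.35 in late precursors (SD, n = 3), all at or below 2.68, so its 0 calls in the 10 comparisons do not show that it stayed level.

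ATG8E and ATG8F set early precursors apart from every other population. For ATG8E the early values were 2.67, 2.82 and 4.50, the middle ones 5.13, 5.25 and 5.44, the late ones 5.11, 6.27 and 6.67 and the mature ones 5.60, 5.89 and 5.36, against 4.63, 5.49 and 5.20 in the epidermis. Every early array lay below all 12 others. Early precursors were 3.43-fold lower than the epidermis (-1.78, SE 0.47; adjusted p = 0.0322), and middle precursors, late precursors and mature guard cells stood 3.84-fold, 6.44-fold and 4.88-fold above early precursors (adjusted p = 0.0242, 0.00189 and 0.00614). Middle, late, mature and epidermis means lay between 5.11 and 6.02, and no pair among these 4 passed. The early to epidermis call was lost without early precursor replicate 1 or 2, and without replicate 2 or 3 of the epidermis (0.0867 to 0.118), and the middle to early call without early precursor replicate 1 or 2 or any 1 of the middle precursor replicates (0.0606 to 0.0869). With only the populations compared in the fit, the late to early and mature to early calls were lost (0.0586 and 0.0682). The early to epidermis call was lost there too (0.209), and with array weights (0.104) or 1 weight per population (0.138). The middle to early call was lost there as well (0.126) and after cyclic loess (0.0549). Array weights (0.0552) and 1 weight per population (0.0757) also lost the middle to early call.

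ATG8F showed the same split. Early precursors read 6.71, 5.81 and 6.03, middle precursors 7.60, 8.29 and 7.82, late precursors 7.34, 8.27 and 8.37 and mature guard cells 8.25, 8.02 and 7.89, against 7.54, 8.01 and 8.81 in the epidermis. All early arrays were below all others. Middle precursors (3.29-fold, adjusted p = 0.0124), late precursors (3.50-fold, 0.00416) and mature guard cells (3.66-fold, 0.00411) were above early precursors, and early precursors were 3.82-fold below the epidermis. The ATG8F means of the 4 populations other than early precursors lay within 0.21 log2 units, and no pair of them passed. Between late precursors and the epidermis the difference was -0.13 with a 95% confidence interval of -0.90 to 0.64, and between mature guard cells and the epidermis -0.06 (-0.84 to 0.71). None of the ATG8F calls was lost when 1 array was left out. After cyclic loess the middle to early call was lost (1.23, adjusted p = 0.0839). It was also lost with only the populations compared in the fit (0.0568) and with 1 weight per population (0.0636). Under the latter settings the early to epidermis call was lost too (0.0892 and 0.0504).

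The genes of the second clade, ATG8H and ATG8I, were also highest in late and lowest in early precursors. ATG8H read 3.54, 2.77 and 2.92 in early precursors, 4.05, 5.02 and 4.67 in middle precursors, 4.92, 5.97 and 6.29 in late precursors and 6.23, 4.74 and 4.34 for mature guard cells, against 4.44, 5.08 and 4.26 in the epidermis. The early arrays were below all 12 others, which overlapped with each other. Late precursors were 6.26-fold (2.65, SE 0.48; adjusted p = 0.00252) and mature guard cells 4.07-fold (2.03, adjusted p = 0.0129) above early precursors. The mature to early call was lost after cyclic loess (1.54, adjusted p = 0.0509) and with only the populations compared in the fit (0.0916). Array weights (0.0693) and 1 weight per population (0.0883) lost it too. Middle against early precursors (1.50, adjusted p = 0.0667) and early precursors against the epidermis (-1.52, adjusted p = 0.0722) did not pass, although these arrays did not overlap.

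ATG8I varied most in early precursors, at 5.28, 2.80 and 3.63, an SD of 1.26. Middle precursors read 4.29, 4.75 and 4.63, late precursors 6.24, 5.65 and 5.78 and mature guard cells 6.03, 5.76 and 4.37, against 4.52, 5.59 and 5.04 in the epidermis. The late arrays lay above all early, middle and epidermis arrays. Late precursors stood 3.96-fold above early precursors (1.99, SE 0.55; adjusted p = 0.0258), the 1 call for ATG8I. It was lost without early precursor replicate 2 or 3 or any 1 of the late precursor replicates (adjusted p from 0.0515 to 0.0784). Cyclic loess (0.0909), only the populations compared in the fit (0.119) and 1 weight per population (0.0524) also lost it. Averaging late precursor replicates 2 and 3 lost it too (0.0643).

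ATG3, the conjugating enzyme gene, moved over a smaller range than most of its ATG8 substrates. It read 6.34, 5.88 and 6.36 in early precursors, 6.39, 6.91 and 6.82 in middle precursors, 6.63, 7.51 and 7.75 in late precursors and 7.24, 6.87 and 7.19 for mature guard cells, against 6.38, 6.67 and 6.03 in the epidermis. Late and mature arrays were all above the early arrays, and mature ones also above the epidermis. Late precursors were 2.15-fold above early precursors (1.10, SE 0.28; adjusted p = 0.016), and mature guard cells 1.87-fold (0.90, SE 0.28; adjusted p = 0.0382). ATG3 missed the threshold in late precursors (0.94, adjusted p = 0.058) and mature guard cells (0.74, adjusted p = 0.157) when set against the epidermis. The late to early call was lost without late precursor replicate 2 or 3 (0.0686 and 0.0773), and after cyclic loess (0.61, adjusted p = 0.124). Only the populations compared in the fit (0.108) and 1 weight per population (0.091) also lost it. Averaging late precursor replicates 2 and 3 lost it too (0.0727). The mature to early call was lost without early precursor replicate 1 or 2, middle precursor replicate 3, or any 1 of the mature guard cell replicates (0.051 to 0.109), and after cyclic loess (0.36, adjusted p = 0.381). Only the populations compared in the fit (0.072), array weights (0.148) and 1 weight per population (0.17) also lost the mature to early call.

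Set side by side, the stages differed most between late and early precursors. There 9 of the 10 genes rose (all but ATG8G), with log2 differences of the 10 between 0.46 and 3.15 and a median of 1.90, against -0.15 over all probe sets. Of all probe sets 10.8% were called higher in this comparison, and 18% of those with a group mean above 2.68. All 10 genes had every late array above every early array, as had 14.9% of all probe sets. For ATG8G both means were near the background, where this order is not measured. Counting near-background means at 2.68, the differences of the 9 called genes ran from 1.80-fold for ATG8C to 6.44-fold for ATG8E. In either direction 20.2% of all probe sets were called. The count of 9 was 6 without late precursor replicate 2 (10.4% of all probe sets) or 3 (10.2%), and 5 with only these populations in the fit (7.14%). The calls of ATG8A, ATG8B, ATG8D, ATG8F and ATG8H held under all 22 alternatives tried.

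**Figure D2:**
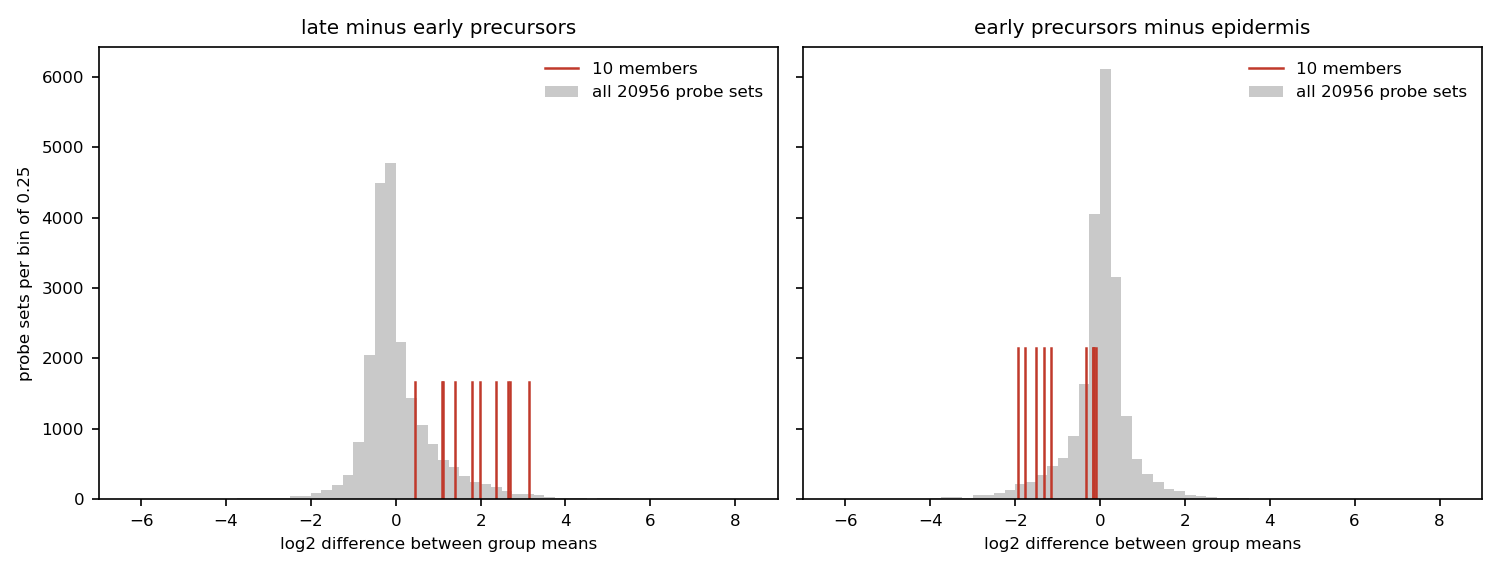
Distribution (vertical axis, probe sets per bin) of log2 differences between group means over all 20956 probe sets (grey, bins of 0.25) with the 10 genes as red lines whose height carries no value, for late minus early precursors (left) and early precursors minus epidermis (right). On the left the 10 lines lie between 0.46 and 3.15, and on the right between -1.94 and -0.09.

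Mature guard cells stood above early precursors in 6 genes (ATG8A, ATG8B, ATG8E, ATG8F, ATG8H and ATG3), where 9.71% of all probe sets were called higher, and the median of the 10 was 1.65. This count was 2 with only these populations in the fit and 3 with array weights or with 1 weight per population, where 4.28%, 8.91% and 8.42% of all probe sets were called in either direction, against 20.1%. Across the single steps of the lineage, 3 genes rose between early and middle precursors (ATG8A, ATG8E and ATG8F; 5.47% of all probe sets called higher) and 1 between middle and late precursors (ATG8B; 2.23%). At the step to middle precursors the count was 0 after cyclic loess or with 1 weight per population and 1 with array weights, with only these populations in the fit, or without early precursor replicate 2 or any 1 of the middle precursor replicates. Of all probe sets 9.5% were called at this step, and between 1.73% and 8.92% under these settings. At the step to late precursors all 10 means were higher, as were those of 47.9% of all probe sets. Of the 10 genes, 6 had no overlap between arrays, as had 12.9% of all probe sets in that direction. ATG8G counts among both, but its means were near the background at every stage, where the order is not measured. At this step the number called depended on the setting, as did the share of all probe sets. Array weights gave 9 genes (20.3% of all probe sets), 1 weight per population 4 (9.25%) and only these populations in the fit 3 (8.56%). Once replicates 2 and 3 of the late precursors were averaged it was 0 (1.56%), against 1 gene and 3.81% in the model used throughout. The array weights put most weight on 1 late array, at 9.61 for late precursor replicate 2, against 0.599 for replicate 1 and 2.04 for replicate 3. With limma 0 genes passed between mature guard cells and late precursors (0.138% of all probe sets did), and 0 had an unadjusted p below 0.05. The mature mean was lower in 9 of 10 genes (10 of 10 after cyclic loess), by at most 0.62 log2 units, and the arrays overlapped in all 10. Of all probe sets 47.8% had a higher mature mean. Between mature guard cells and middle precursors 0 passed as well (1.36% of all probe sets did), with 1 gene at an unadjusted p below 0.05.

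**Figure D3:**
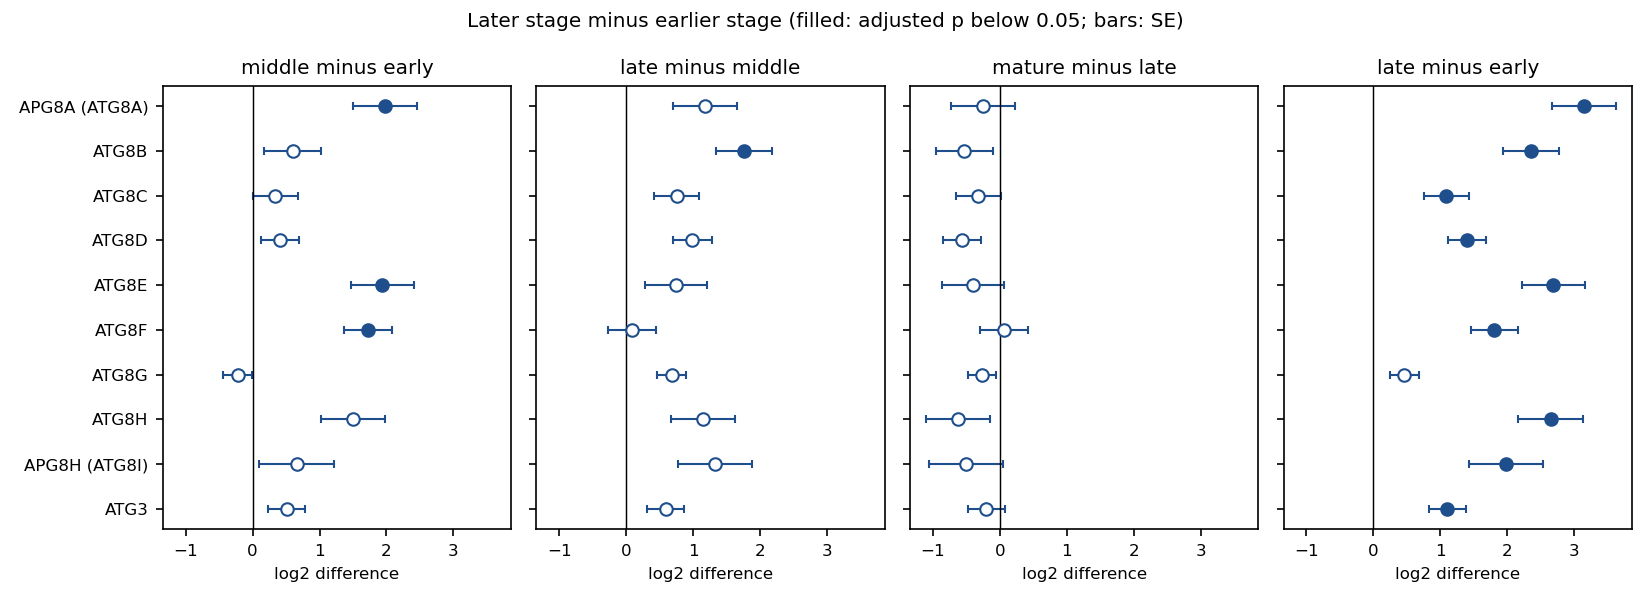
Log2 difference of each gene between lineage stages (horizontal axis, later minus earlier stage; bars are the SE of limma's model; 3 arrays per stage). Filled points passed at an adjusted p below 0.05: 3 for middle minus early, 1 for late minus middle, 0 for mature minus late and 9 for late minus early.

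Relative to the epidermis, the genes split by stage. The whole epidermis can itself contain cells of the stomatal lineage, so a part is set here against a whole. The share of such cells in the epidermis samples was not measured. In early precursors ATG8E and ATG8F fell, where 5.51% of all probe sets were called lower, and all 10 differences were negative, with a median of -0.74 (9 of 10 were negative after cyclic loess). Of all probe sets 57.8% had a positive difference in early precursors. In middle precursors 0 genes passed (5.52% of all probe sets did in either direction), 0 had an unadjusted p below 0.05, and 6 differences were positive and 4 negative (4 and 6 after cyclic loess). Over all probe sets 44.3% were positive there. In late precursors ATG8A, ATG8B and ATG8D rose, where 4.75% of all probe sets were called higher. The median of the 10 was 0.92, and 9 differences were positive, as were 42.9% over all probe sets. In mature guard cells ATG8B rose, where 2.29% were called higher, with a median of 0.51. Some of these signs are between means near the background, where the order is not measured. They are those of ATG8G at every stage, of ATG8B in early and middle precursors and of ATG8D in early precursors. The early precursor count was 0 with only these populations in the fit (1.3% of all probe sets called in either direction, against 8.91%) or with 1 weight per population (3.67%), and 1 with array weights (4.12%), without epidermis replicate 2 (5.57%) or without early precursor replicate 2 (9.04%). The late precursor count was 7 with array weights (22.5% of all probe sets, against 8.01%), and 1 with late precursor replicates 2 and 3 averaged (4.09%), without epidermis replicate 3 (4.19%) or without late precursor replicate 3 (4.26%). In the array weights, late precursor replicate 2 counted 9.61, against 0.599 for replicate 1 and 2.04 for replicate 3. These comparisons share the 3 epidermis arrays, and whether a gene's difference changed from stage to stage was tested only between the stages themselves, as above.

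**Figure D4:**
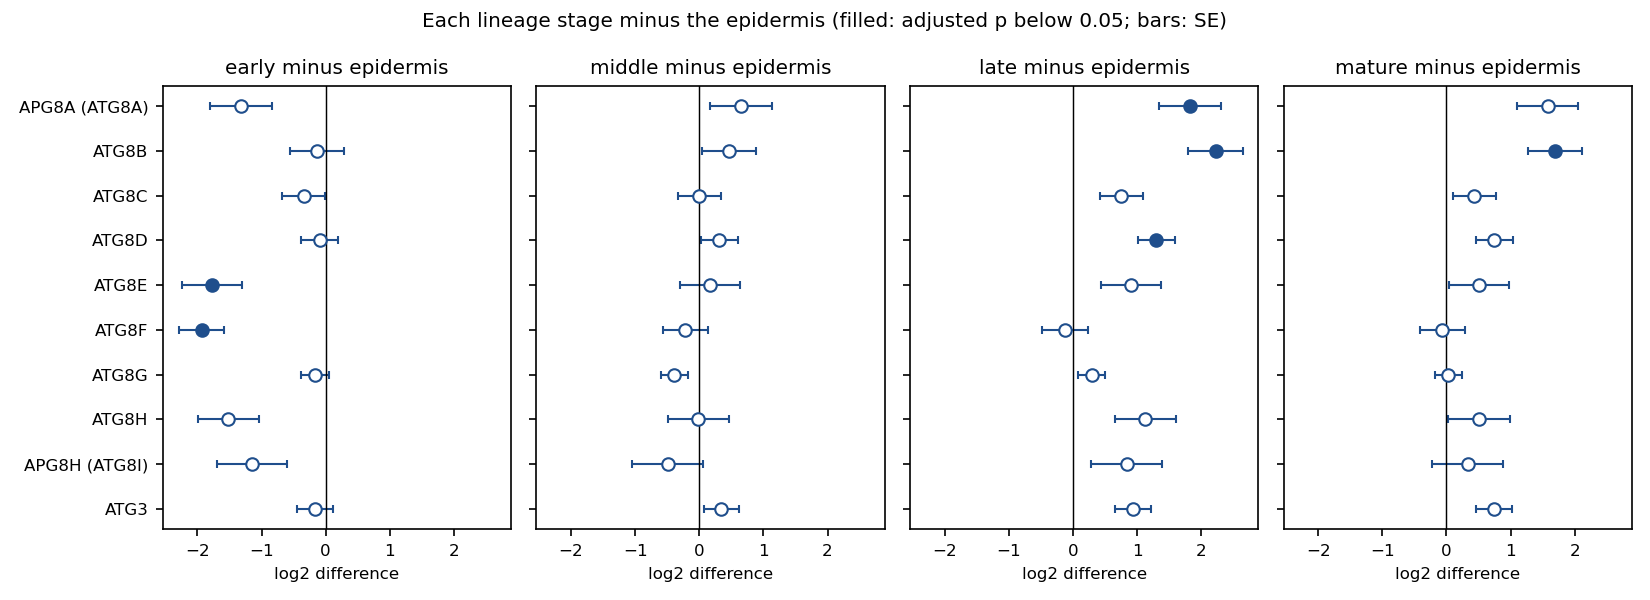
Log2 difference of each gene between a lineage stage and the epidermis (horizontal axis; bars are the SE of limma's model; 3 arrays per population). Filled points passed at an adjusted p below 0.05: ATG8E and ATG8F in early precursors, 0 in middle precursors, ATG8A, ATG8B and ATG8D in late precursors, and ATG8B in mature guard cells.

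In the order of their means, ATG8A, ATG8B, ATG8C, ATG8D, ATG8E and ATG3 ran from late precursors through mature guard cells, middle precursors and the epidermis down to early precursors. In ATG8H and ATG8I the epidermis stood ahead of middle precursors. No order is given for ATG8G, whose means were all near the background, and the places of means near the background in ATG8B (middle precursors, epidermis, early precursors) and ATG8D (epidermis, early precursors) are not measured. ATG8F ran from the epidermis through mature guard cells, late and middle precursors to early precursors. Of the steps between neighbours in these orders, 2 passed: ATG8E in the epidermis over early precursors and ATG8F in middle over early precursors. The other steps did not pass the test.

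Within populations, single arrays were high or low for most of the genes. Late precursor replicate 1 was the lowest of the 3 late arrays in 9 of 10 genes, with a median deviation from the group mean of -0.52, and ATG8I was the exception. In mature guard cells, replicate 1 was the highest in 8 genes (median deviation 0.44) and replicate 3 the lowest in 7 (-0.41). In the other populations, middle precursor replicate 1 was the lowest in 7 genes (-0.18) and early precursor replicate 2 in 6 (-0.34). Epidermis replicate 2 was the highest in 6 (0.35). The guard cell list, of which 3 of 7 markers were measured (CHX20, BLUS1 and AT1G22690), had a summed log2 level of 19.9 on late precursor replicate 1, against 22.3 and 23.0 on the other late arrays. In mature guard cells it was 21.0, 21.2 and 20.5 on replicates 1, 2 and 3. Over the populations this sum ran from 8.80 to 15.2 in early precursors, 12.6 to 16.3 in middle precursors, 19.9 to 23.0 in late precursors and 20.5 to 21.2 for mature guard cells, against 13.8 to 14.7 in the epidermis, with BLUS1 near the background throughout. The highest early value was on replicate 1, which had the highest early reading for 4 of the 10 genes (ATG8A, ATG8F, ATG8H and ATG8I). The mesophyll sum was highest on early replicate 3 (25.6), which had the highest early reading for 4 (ATG8C, ATG8D, ATG8E and ATG3). The early means of ATG8A, ATG8C and ATG8D were near the background, where the order is not measured. The part of the guard cell and mesophyll markers in the results was not tested. The spread of the genes within a population was wider than that of a typical probe set, with a median SD of 0.471 in late precursors and 0.493 for mature guard cells, against 0.168 and 0.196 over all probe sets; the level of the probe sets, which differs between these sets, was not matched.

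Between pairs of the 10 genes, Pearson's r over the 15 arrays ran from 0.19 (ATG8F and ATG8G) to 0.92 (ATG8B and ATG8D), with a median of 0.66 over 45 pairs. These values describe arrays that fall into 5 populations and share their sorting and labelling, and they carry no test. For the 7 genes that passed the F test, the 2 most similar of 1518 other probe sets with a gene symbol were looked up by the same measure. ATG8B and ATG8D had each other as the closest. Next to them came ASPGB1, an asparaginase gene (r = 0.90 to ATG8B), and the defensin-like gene PDF1.4 (0.86 to ATG8D). ATG8A was closest to GT-1, a trihelix transcription factor gene (0.95), and GLX2-5, a glyoxalase II gene (0.94), and GLX2-5 and ATG8A in turn were closest to ATG8H (0.91 and 0.90). The genes nearest to ATG8E were GR1, which encodes glutathione reductase (0.93), and IDH-V, an isocitrate dehydrogenase subunit gene (0.93). The protease inhibitor gene SERPIN1 (0.92) and WES1, an auxin-conjugating GH3 gene (0.85), were nearest to ATG8F. SDH2-1, a succinate dehydrogenase subunit gene (0.88), and the glycosyltransferase gene UGT73C7 (0.87) were nearest to ATG3.

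**Figure D5:**
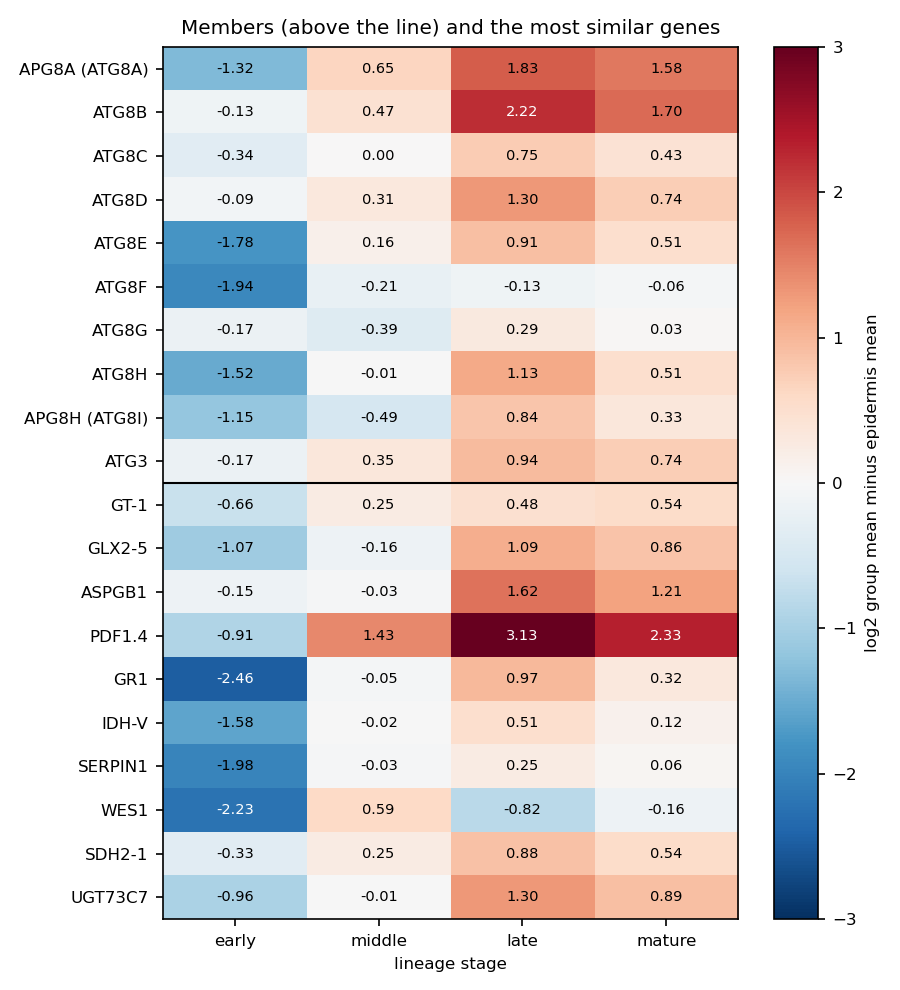
Log2 difference between the mean of each lineage stage and the epidermis mean (colour and printed value) for the 10 genes, above the line, and the 10 other genes named for likeness, below it. ATG8A is at -1.32, 0.65, 1.83 and 1.58 from early precursors to mature guard cells, and GR1, picked for its likeness to ATG8E, at -2.46, -0.05, 0.97 and 0.32. Printed values use the means as they are, also where a mean is near the background and the size is not measured. For ATG8A in early precursors the fold below the epidermis is at least 1.49.

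The rest of the autophagy pathway was covered thinly. A list of 45 genes of the initiation complex, membrane supply, conjugation, cargo receptors and nutrient kinases had 11 measured members, and the reference gene list names 2 of them, ATG101 and RAPTOR1. ATG101, a subunit of the initiating kinase complex (F test adjusted p = 0.624), and RAPTOR1, a partner of the TOR kinase (0.38), did not pass. Of the 11, AT5G50230 and AT2G37840 passed the F test, as did 19.8% of all probe sets. The lists with fewer than 6 measured genes also held AT2G32760 (F test adjusted p = 0.49), AT3G59950 (0.342) and AT4G34660 (0.28), which did not pass. AT5G50230 averaged 1.71 ± 0.34 in early, 2.01 ± 0.37 in middle and 2.57 ± 0.20 in late precursors and 2.65 ± 0.18 for mature guard cells, against 2.06 ± 0.01 in the epidermis (SD, n = 3), all at or below 2.68, so no fold is given. The brighter of the probe sets of AT2G37840 averaged 3.84 ± 0.17 in early, 4.28 ± 0.07 in middle and 5.01 ± 0.37 in late precursors and 4.10 ± 0.09 for mature guard cells, against 4.12 ± 0.53 in the epidermis. This probe set rose in late precursors against both early precursors (1.17, adjusted p = 0.00527) and the epidermis (0.89, adjusted p = 0.0398). The dimmer probe set of AT2G37840 was not looked at. In mature guard cells against early precursors 1 of the 11 was called higher, AT5G50230, and 1 lower, AT3G18770, which was chosen after its values were seen, where 9.71% of all probe sets were called higher and 10.4% lower. The mature means of both were near the background, and no size is given. Over the 11 genes, 2 were called higher and 0 lower in late against early precursors, with a median difference of 0.46. Of all probe sets 10.8% were called higher there, with a median of -0.15. None of the 5 sugar starvation markers listed was analysed here.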

How the data were processed

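The authors summarised each probe set to 1 log2 expression value per array with affy and RMA, according to the submitters' processing notes, and deposited these values, with versions not given in the sources used here. Values run from 1.11 to 13.4, and base 2 was inferred from this range and from RMA. Background correction and quantile normalisation in RMA act on whole arrays, so a level is relative to the rest of its array. Precision is limited by the number of arrays. Members were matched by locus through the platform annotation and the RefSeq gene list: 12783 probe sets are listed to 1 gene, 37 to several and 8136 to none. No genome build is given here, so no coordinates are printed, and sequences were not used here.

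All 15 arrays entered 1 model in limma 3.58.1 (R 4.3.3) with a mean per population and 10 residual degrees of freedom. This model takes the spread of a gene as equal in all populations, while early precursor arrays were the most variable. For a gene that varied more in early precursors, SEs and p-values against them can be too small. With 1 weight per population, 6 genes were called in late against early precursors (10.7% of all probe sets in either direction). The 10 pairs of populations and an F test over the 5 were tested two-sided with empirical Bayes moderation. Within each comparison, Benjamini-Hochberg adjustment of the p-values ran over all 20956 probe sets, with a threshold of 0.05. The steps were tested on simulated data. Members, lists and the bound of 2.68 were chosen with earlier results of these data known. Named genes are all 10 members, list genes that passed the F test or belong to a list with fewer than 6 measured, and the 2 most similar genes with a symbol of each member that passed. List genes without a name in the gene list are given by locus. A list gene with several probe sets was represented by the brightest. Few same-numbered arrays deviated together (3 of 30 same-numbered pairs had deviations with r above 0.1), so replicate numbers are not in the model. Whether they pair the arrays was not settled. Alternatives were cyclic loess, only the populations compared, array or population weights, a filter on dim probe sets, leaving out the early precursor arrays or each array in turn, averaging late precursor replicates 2 and 3, the pair with the highest r, and a replicate block.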

Additional observations from a re-analysis of the deposited data

How the results depend on the processing

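Shares in parentheses are of all probe sets called in either direction under the same setting. All 25 called differences kept their sign under every alternative tried, and 8 of them kept their call under every alternative. With only the compared populations in the fit, the number of called genes was 0 in early precursors against the epidermis (1.3%), 0 in mature guard cells against the epidermis (2.54%), 1 in middle against early (1.73%), 3 in late against middle (8.56%), 5 in late against early (7.14%) and 2 in mature against early (4.28%). Array weights gave 1 in early against the epidermis (4.12%), 7 in late against the epidermis (22.5%), 1 in middle against early (3.67%), 9 in late against middle (20.3%) and 3 in mature against early (8.91%). The weight of late precursor replicate 2 was 9.61, against 0.599 for late replicate 1 and 2.04 for late replicate 3. One weight per population gave 4 over the 5 populations together (18.6%), 0 in early against the epidermis (3.67%), 0 in middle against early (3.11%), 4 in late against middle (9.25%) and 3 in mature against early (8.42%). Cyclic loess gave 0 in middle against early (5.44%). Without the early precursor arrays the F test passed 2 (16.2%). With late precursor replicates 2 and 3 averaged the counts were 1 in late (4.09%) and 0 in mature (2.74%) against the epidermis and 0 in late against middle (1.56%). In the model used throughout these shares were 19.8% over the 5 populations, 8.91% in early, 8.01% in late and 3.91% in mature against the epidermis, 9.5% in middle against early, 3.81% in late against middle, 20.2% in late against early and 20.1% in mature against early. The cause of these changes was not tested. With the dim probe sets left out, ATG8G was not tested and no count moved by over 1.5 times.

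The replicate block gave 0 in mature guard cells against the epidermis (3.47%) and 0 in late against middle precursors (3.34%), and under it the ATG3 call in mature guard cells against early precursors was lost as well. Same-numbered arrays deviated together with r between -0.10 and 0.17, and 7 of 15 arrays were closest to an array of their own number. Between mature guard cells and the epidermis r was 0.06, 0.14 and 0.17. The r values were not set beside those of differently numbered arrays, so whether the numbers pair the arrays was not settled.

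With 1 array left out, the counts ran from 5 to 8 over the 5 populations together, 1 to 3 in early, 0 to 0 in middle, 1 to 4 in late and 0 to 1 in mature against the epidermis, 1 to 4 in middle against early, 0 to 2 in late against middle, 0 to 0 in mature against late, 6 to 9 in late against early, 5 to 7 in mature against early and 0 to 0 in mature against middle. The share of all probe sets called changed with the array left out too. Without epidermis replicate 2 the count was 1 in early against the epidermis (5.57%, against 8.91% with all arrays). It was 0 in mature against the epidermis without epidermis replicate 1 (2.73%) or 2 (4.46%), against 3.91% with all arrays. These ranges alone therefore do not separate a change in these genes from a change over all probe sets. Cyclic loess moved the median of all probe sets by 0.13 in late and 0.12 in mature against early. Relative to that median, the members' median was 1.46 in late against early, in place of 2.05, and 1.18 in mature against early, in place of 1.79. It also turned the share of higher calls among all calls to 44.3% in middle, 49% in late and 43.2% in mature against the epidermis, in place of 58.6%, 59.3% and 58.5%. Levels near 2.68 limit what can be seen for ATG8B, ATG8C, ATG8D and ATG8G, and for ATG8A in early precursors.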
